A study of Drosophila melanogaster with 8 samples.

Results

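Overexpression of cbc together with PCF11 was compared with overexpression of PCF11 alone in testes of bam mutant Drosophila melanogaster. All poly(A) windows that the deposited count tables of both genotypes list were joined, and only the read minimums of the tests were applied to them. The authors had run PolyA-miner with minimums of its own (gene_min 10, apa_min 0.05). Its supplied list of sites is named for bam against spermatocytes, so shares of entries given here are shares of a selected list. The comparison rests on 4 of the 8 libraries of the series, 2 per genotype, and covers 1082 windows in 529 gene entries (a gene symbol with an isoform suffix; 522 symbols). Of these entries, 510 held enough reads for the test of site usage and 19 did not, while 524 were tested for summed reads and 5 were not.

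Most animal genes can end their mRNA at more than 1 place. A cleavage complex recognises signals in the nascent transcript, cuts it and hands it to poly(A) polymerase, and use of a site nearer the gene's start gives a shorter 3' untranslated region. Cbc is the fly Clp1 protein and PCF11 the fly Pcf11 protein. Both belong to cleavage factor II of this complex, in which Pcf11 also binds the C-terminal domain of RNA polymerase II and takes part in transcription termination. In the male germ line, spermatogonia leave their mitotic divisions and become spermatocytes under the control of bam, and many genes use more proximal sites in spermatocytes than in spermatogonia.

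The double overexpression males were heterozygous for UAS transgenes of V5-tagged cbc and of HA-tagged PCF11, isoform RF (UAS>cbc-V5 and PCF11-RF-HA). The PCF11 males carried UAS>PCF11-RF-HA alone, the cbc males UAS>cbc-V5 alone, and the bam control males no UAS transgene (+/+). Every group, the controls included, was mutant for bam (bam86 over bam1) and carried both Gal4 drivers, nosGal4 on the X chromosome and bamGal4 on the bam86 chromosome, which drive UAS transgenes in early germ cells. Crosses stood for 3 days at 25 degrees C, progeny were kept at 29 degrees C until dissection, and each library pooled 150 pairs of whole testes. Germ cells of bam mutants stay in spermatogonial divisions, so the testes hold few later germ cells beside the somatic cells. In the PCF11 males a single UAS transgene was driven and in the double males a pair, so the addition of cbc and the addition of another UAS transgene cannot be told apart. The same holds for the cbc males, with a single UAS transgene, against the bam controls, with none. Transcripts of cbc, Pcf11, bam and nos are not among the listed genes, so overexpression and the mutation were not measurable here.

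Listed reads came to 296166 and 287828 in the PCF11 plus cbc libraries, 251163 and 238162 with PCF11, 287046 and 244017 with cbc, and 258161 and 333675 in the bam controls. These totals cover only the listed windows, and the full depth of each library was not analysed here. The median entry held 248 to 328 reads per library; at 300 reads, a proximal share of 25% has a 95% exact binomial interval of 20.2% to 30.3%, for counting error alone. Reads carried no molecular identifiers. Duplicates differed by more than counting error, with a chi-square over its degrees of freedom of 9.79 with PCF11 plus cbc, 6.29 with PCF11, 5.88 with cbc and 12.9 in the controls. The labels do not say that duplicates came from separate cultures, so the spread behind each p-value may be technical. Of the marker lists, 3 of 13 germ line genes (CycB, Rbp9 and orb), 3 of 11 cyst and hub genes (Imp, chinmo and zfh1), 1 of 10 spermatocyte genes (twe), and none of the 8 sheath, muscle and fat genes or the 4 spermatid genes were listed, so the labelled tissue could be checked only on these genes.

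The 2 PCF11 plus cbc libraries stood apart from each other at genes that respond to cbc alone. Among the 33 entries whose proximal usage was higher with cbc alone than in the bam controls, replicate 1 lay nearer the controls than replicate 2 in 28. Among the 67 entries whose summed reads were higher with cbc alone, it did so in 56. For the 2 PCF11 libraries these counts were 12 and 35. In the sets that were lower with cbc alone, they were 8 of 10 for usage and 39 of 56 for reads with PCF11 plus cbc, and 2 and 27 with PCF11. No such counts over all tested entries are given here, and whether the split is particular to these entries was not tested. The counts of calls are also given without PCF11 plus cbc replicate 1, as are the values of Roe1, CG32161, JIL-1, Rab5, TH1 and nrv2.

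Proximal usage is the percentage of an entry's listed reads that fall in the window nearest the start of the gene. No entry tested changed its proximal usage past the threshold when cbc was added to PCF11. By edgeR's quasi-likelihood test on all 8 libraries with Benjamini-Hochberg adjustment, 0 of 510 entries passed an adjusted p of 0.05, which is 0.0% of those tested. An unadjusted p under 0.05 was reached by 18 entries (3.53%), and DESeq2 called 1, Roe1. Standard errors were derived from the quasi-likelihood F statistic. The count of calls was also 0 without PCF11 plus cbc replicate 1, and without each of the other 3 libraries in turn. On the same fit, edgeR called 43 entries (8.43%) for cbc alone against the bam controls, 33 of them higher (6.47%) and 10 lower (1.96%). For PCF11 alone against the controls it called 57 (11.2%), and for PCF11 plus cbc against the same controls 53 (10.4%); these comparisons share the control libraries.

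**Figure D1:**
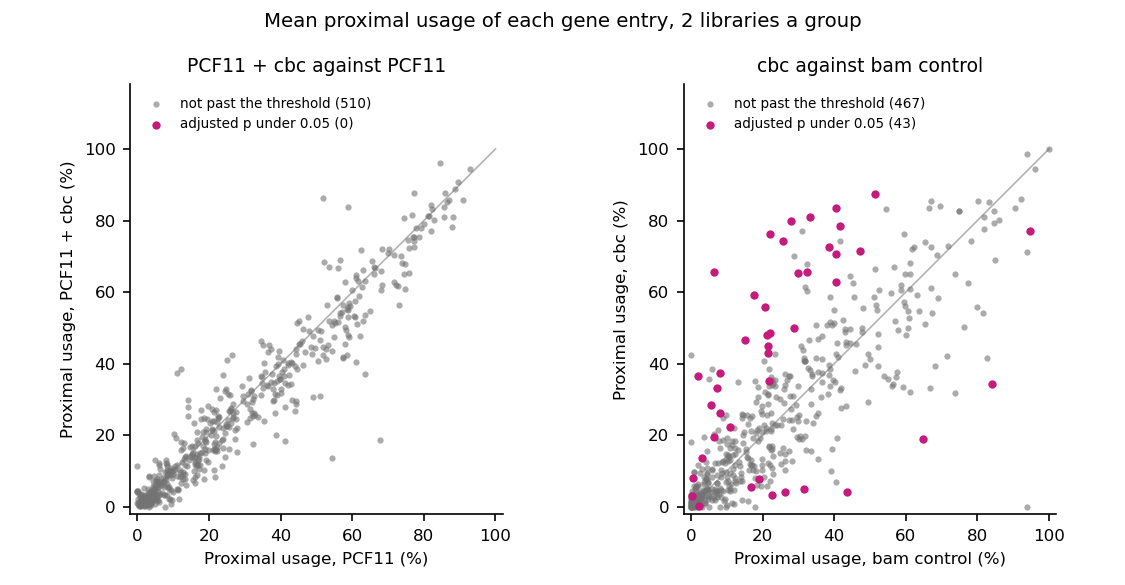
Mean proximal usage (%) of the 510 tested entries, 2 libraries per group, with each entry as a point: on the left PCF11 plus cbc (vertical axis) against PCF11 (horizontal axis), on the right cbc (vertical axis) against the bam controls (horizontal axis). Large points had an edgeR adjusted p under 0.05 (0 on the left, 43 on the right), and the diagonal marks equal usage.

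The median proximal usage over the 510 entries was 21.7% and 21.1% in the PCF11 plus cbc libraries, against 21.5% and 22.7% in the PCF11 libraries. The groups overlapped, with means of 21.4% ± 0.456 and 22.1% ± 0.868 (SD, n = 2 each), and the difference of -0.719 percentage points gave p = 0.667 in an exact two-sided permutation test, in which 2 libraries against 2 cannot go below 0.333. The log2 odds ratio of proximal usage, PCF11 plus cbc over PCF11, had a median of -0.16; 318 entries lay below 0 and 192 above. Both PCF11 plus cbc libraries lay below both PCF11 libraries in 130 entries (25.5%) and above both in 51 (10%).

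The precision of these values differs widely between entries. The median standard error was 0.65 on the log2 scale. The 95% interval of the odds ratio stayed within 1 log2 unit of 0 on both sides for 69 entries (13.5%) and within 2 units for 268. A shift of the size of 1 log2 unit was therefore not detectable for most entries at this depth. In 25 entries 1 of the 2 groups held 3 or fewer proximal reads.

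Roe1, a nucleotide exchange factor of the mitochondrial Hsp70 chaperone, had the smallest adjusted p. Its proximal window took 1.77% and 1.12% of reads in the PCF11 plus cbc libraries, against 4.73% and 7.10% in the PCF11 libraries. With cbc alone the share was 1.72% and 2.60%, and in the controls 2.25% and 2.71%. The PCF11 libraries were the high ones and did not overlap with any other library. The log2 odds ratio was -2.09 ± 0.34 (SE), with a 95% interval of -2.87 to -1.31 and an adjusted p of 0.0977 by edgeR, so the entry did not pass. Without PCF11 plus cbc replicate 1 the log2 odds ratio was -2.46 (edgeR adjusted p = 0.193). DESeq2 gave an adjusted p of 7.49e-05 for Roe1, and over 15 alternatives the adjusted p ran between 8.81e-06 and 0.999. The proximal window held 46 and 25 reads in the PCF11 plus cbc libraries, against 71 and 124 in the PCF11 libraries, and the distal window held 2557 and 2215 reads in the PCF11 plus cbc libraries, against 1430 and 1623 in the PCF11 libraries.

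The 7 entries that followed with a lower proximal share were HIPP1, CG10254, Ire1, Hrb98DE, isopeptidase-T-3, PRL-1 and sina, each with an edgeR adjusted p of 0.992. In Ire1, the kinase and RNase of the unfolded protein response in the endoplasmic reticulum, proximal usage was 8.57% and 8.22% with PCF11 plus cbc, against 19.7% and 23.4% with PCF11. The 2 groups did not overlap, the cbc libraries had 13.0% and 24.2%, and the controls, with 9.95% and 8.11%, lay near the double libraries. HIPP1, a partner of HP1 and of insulator proteins, had 4.55% and 4.83% with PCF11 plus cbc, against 8.93% and 13.4% with PCF11. Its proximal window held 29 and 31 reads with PCF11 plus cbc and 56 and 76 with PCF11. It held 31 and 39 with cbc and 23 and 46 in the controls. Hrb98DE, an hnRNP of the A/B family, had 11.5% and 9.53% with PCF11 plus cbc, against 17.5% and 16.6% with PCF11. In the controls its proximal window held 299 and 448 reads and its distal window 1602 and 1985. With cbc these were 135 and 178, and 1374 and 1069. PRL-1, a phosphatase of the regenerating liver family, had 48.2% and 47.0% with PCF11 plus cbc, against 59.9% and 58.3% with PCF11. This entry had one of the narrower intervals, -1.26 to -0.08 around a log2 odds ratio of -0.67 ± 0.26 (SE). Its proximal window held 1184 and 1036 reads with PCF11 plus cbc, against 1159 and 905 with PCF11, while the distal window held 1273 and 1169 reads with PCF11 plus cbc, against 777 and 648 with PCF11. In sina, a ubiquitin ligase of the Ras and Notch pathways, proximal usage was 62.7% and 60.6% with PCF11 plus cbc, against 72.4% and 73.0% with PCF11. CG10254 and the deubiquitinase isopeptidase-T-3 had few proximal reads. CG10254 had 0.379% and 0.948% with PCF11 plus cbc, against 4.52% and 3.28% with PCF11. Its proximal reads were 2 and 4 with PCF11 plus cbc, 22 and 14 with PCF11, 7 and 4 with cbc, and 0 and 9 in the controls. In isopeptidase-T-3 the shares were 1.72% and 2.59% with PCF11 plus cbc, against 8.77% and 8.75% with PCF11. Both windows of Ire1 and sina and the distal window of HIPP1 overlap a gene on the opposite strand, and both windows of PRL-1 one on the same strand, and reads were counted without regard to strand, so reads of such pairs cannot be told apart.

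The 8 entries with a higher proximal share and the smallest p were GlcAT-S, CG32161, fzr2, CG5098, Ccdc85, flfl, CG8195 and Grip71, and none passed (edgeR adjusted p of 0.992 each). In 6 of them the PCF11 libraries held 3 or fewer proximal reads in all. GlcAT-S, a glucuronyltransferase, had 20 of 467 reads at the proximal window with PCF11 plus cbc and 0 of 391 with PCF11. Its ratio was 5.58 when 3 counts are taken as the floor over the PCF11 group. fzr2, a relative of the APC/C activator fizzy, had 31 of 2675 reads with PCF11 plus cbc and 0 of 2225 with PCF11. Its ratio over the same floor was 8.60, and 29 of the 31 reads came from replicate 1. CG32161 had 26 of 583 reads with PCF11 plus cbc and 1 of 558 with PCF11, a ratio of 24.9 with a counting interval of 4.09 to 1020. Of these 26 reads, 22 came from replicate 1 and 4 from replicate 2, and the fitted log2 odds ratio was 4.27 with both and 2.74 without replicate 1. The other 3 of these entries also rested on few reads. CG5098 had 27 of 734 reads with PCF11 plus cbc and 3 of 642 with PCF11, a ratio of 7.87 (counting interval 2.42 to 40.5). Grip71, a subunit of the gamma-tubulin ring complex, had 8 of 381 with PCF11 plus cbc and 1 of 378 with PCF11, a ratio of 7.94 (counting interval 1.06 to 352). CG8195 had 8 of 184 with PCF11 plus cbc and 0 of 131 with PCF11, a ratio of 1.90 over the same floor. The ratios over a floor are not lower bounds, since the PCF11 plus cbc share has its own counting error. In Grip71, CG5098 and fzr2 a control library held more proximal reads than a PCF11 plus cbc library. The controls held 20 and 8 in Grip71, 25 and 7 in CG5098, and 5 and 12 in fzr2. The cbc libraries held 5 and 22, 4 and 0, and 14 and 0 in the same order. In GlcAT-S, CG32161 and CG8195 no cbc or control library held more than 3. flfl, a regulatory subunit of protein phosphatase 4, had more reads, with 32.9% and 40.6% in the PCF11 plus cbc libraries, against 19.8% and 27.96% in the PCF11 libraries. Its log2 odds ratio was 0.90 ± 0.41 (SE), with an interval of -0.02 to 1.83. Ccdc85 had 11.6% and 13.2% with PCF11 plus cbc, against 7.36% and 4.74% with PCF11. Both windows of fzr2 overlap Stoml2, and both of CG32161 overlap Zcchc7, on the same strand. The distal windows of fzr2, CG32161 and CG5098 lie outside the annotated gene. Both windows of Grip71 overlap Irk3, and the distal window of CG5098 overlaps CG5756, on the opposite strand. Reads of such pairs cannot be told apart, so totals of these entries may include reads of the other gene.

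In 12 gene lists no entry passed in either direction, as in the 510 entries together. Nor did any pass for summed reads in these lists, where 0.191% of all entries did, so these counts are the same as the background. Of the cleavage and polyadenylation list, 1 of 29 genes was measured. This was CycT, the cyclin of P-TEFb, with 49.4% and 46.7% with PCF11 plus cbc, against 58.7% and 58.7% with PCF11, and a log2 odds ratio of -0.62 ± 0.51 (SE). Of the elongation and Integrator list, which also holds CycT, all 4 entries tested for usage lay below 0, with a median of -0.22. They include TH1, which belongs to the pausing factor NELF, and IntS6, an Integrator subunit with 19.9% and 41.8% with PCF11 plus cbc, against 36.0% and 29.2% with PCF11. The vesicle traffic list had 8 entries with a median of -0.38, 2 above and 6 below 0. The mitochondria and metabolism list had 7 with a median of -0.46, 2 above and 5 below. The chromatin and transcription list had 21 with a median of -0.07, 10 above and 11 below, and the RNA-binding and translation list 9 with a median of 0.07, 5 above and 4 below. The cell cycle list had 16 (median -0.18), kinases and signalling 12 (median -0.20), ubiquitin and autophagy 9 (median -0.26), protein folding 3 (median 0.05), splicing 2 (median -0.57) and meiotic arrest 2 (median -0.18). All 12 stand beside a median of -0.16 over all entries. Of the markers tested for usage, none passed: the 3 germ line entries had 2 above and 1 below 0, with a median of 0.47, the 3 cyst and hub entries were all below 0, with a median of -0.76, and the spermatocyte gene twe lay at -0.67. Among the germ line entries, orb, which encodes a CPEB translation regulator, had 23.7% and 18.3% with PCF11 plus cbc, against 10.7% and 22.7% with PCF11. With cbc alone orb had 9.54% and 13.8%, and in the controls 0.228% and 3.70%.

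By distance between the windows, the medians lay close to the value over all entries. The median log2 odds ratio was -0.16 for the 100 entries whose windows lay under 200 bp apart, -0.11 for 201 at 200 to under 500 bp, -0.20 for 136 at 500 to under 1000 bp and -0.26 for 73 at 1000 bp or more. It was -0.16 where mean proximal usage was under 10% (149 entries), -0.17 at 10 to 50% (256) and -0.16 at 50% or more (105). By chromosome the median lay between -0.24 on 3L (113 entries) and -0.13 on 3R (123), apart from 0.31 over the 8 entries of chromosome 4. In the annotation, 525 of the 529 proximal windows lay in a 3' UTR, as did 461 of the distal ones, and 61 distal windows lay outside the gene they are assigned to. 

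Entries that respond to cbc alone were followed in the 4 libraries with PCF11. The 33 entries with higher proximal usage in the cbc libraries than in the bam controls were called by the contrast of those groups. The libraries with PCF11 were not in that contrast, but they shared in its estimate of spread and set the read minimum. In the PCF11 plus cbc libraries their median usage was 43.0% and 51.1%, against 52.7% and 52.8% in the PCF11 libraries; the cbc libraries had 49.0% and 52.9% and the controls 21.9% and 21.0%. All 4 libraries with PCF11 lay far above the controls. The control libraries were used to choose these entries, so part of that gap is built in. Replicate 1 of the double overexpression had the lowest median of the 6 overexpression libraries. For these 33 entries the median log2 odds ratio was -0.17 for PCF11 plus cbc over PCF11 and 2.31 for cbc over the controls. None passed in the first comparison, as in all entries (0.0%), so this count too is the background. The 95% interval of the first comparison ended short of the estimate for cbc alone in 32 of 33, an estimate that was itself used to choose them. The 10 entries with lower usage in the cbc libraries had a median of -0.45 for PCF11 plus cbc over PCF11, none past the threshold, and -3.02 for cbc over the controls. In these 10 the median usage was 9.31% and 7.40% with PCF11 plus cbc, against 9.02% and 10.5% with PCF11; it was 5.44% and 6.49% with cbc and 32.8% and 27.4% in the controls.

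**Figure D2:**
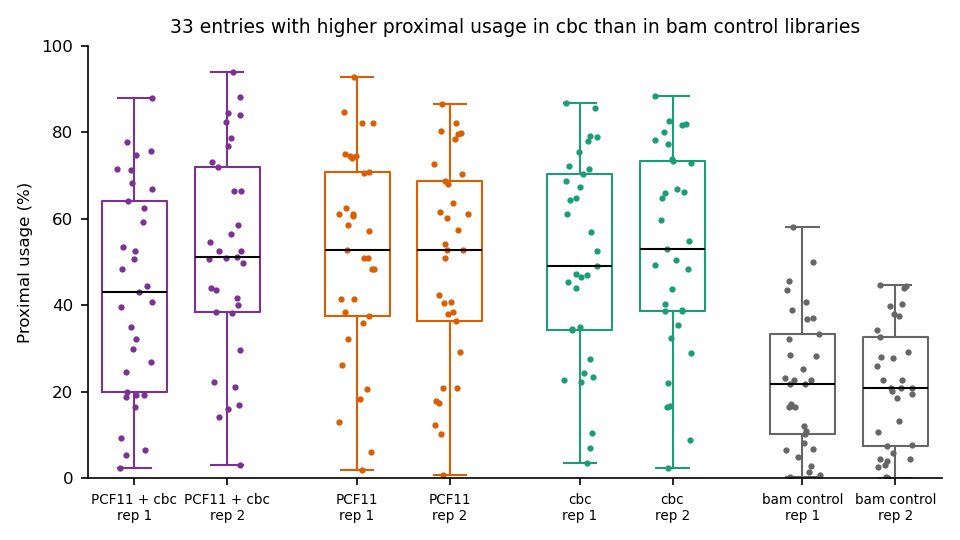
Proximal usage (%) in each of the 8 libraries for the 33 entries that edgeR called higher in cbc than in bam control libraries; boxes span the quartiles, black lines are medians, whiskers reach the farthest entry within 1.5 box lengths, and points are entries. Medians were 43.0% and 51.1% with PCF11 plus cbc, 52.7% and 52.8% with PCF11, 49.0% and 52.9% with cbc and 21.9% and 21.0% in the controls.

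The step with cbc was then compared between flies with and without the PCF11 transgene. It was taken as (PCF11 plus cbc minus PCF11) minus (cbc minus bam control) in the same edgeR fit. Either step also adds a UAS transgene, to a single one with PCF11 and to none without. A difference of the 2 steps therefore cannot be assigned to cbc itself. The 2 steps differed in 9 of 510 entries (1.76%), 2 with a positive (0.392%) and 7 with a negative difference (1.37%), and 85 entries (16.7%) had an unadjusted p under 0.05. In all 9 the step without PCF11 was itself past the threshold and the step with PCF11 was not. Since the step without PCF11 enters the difference with a minus sign, the opposite direction of the 2 is in part built in. The count depends on single libraries. It was 3 without PCF11 plus cbc replicate 1 and 12 without its replicate 2, 0 and 3 without PCF11 replicates 1 and 2, 1 and 0 without cbc replicates 1 and 2, and 4 and 6 without bam control replicates 1 and 2. All 9 kept their sign in all 8 of these fits and none passed in all 8: CG12099 passed in 6, CG31523 in 5, sbb in 4, Rop and CG14207 in 3 each, CG31855 and DUBAI in 1 each, and Rab11 and Idh3b in 0. A fit with the replicate number as a block called 5, all among the 9, and DESeq2 called 31, with the 9 among them. The bam controls also differed from the other genotypes in the listed cyst and hub markers, whose summed level was 12255 and 12363 CPM with PCF11 plus cbc, 11939 and 13588 with PCF11, 14773 and 14774 with cbc, and 20007 and 21516 in the controls. The summed level of the 3 germ line markers was 4700 and 5016 CPM with PCF11 plus cbc, 5323 and 5459 with PCF11, 5855 and 6374 with cbc, and 6805 and 6731 in the controls. Their part in the results was not tested, and in whole testes fewer cells of a type and less RNA per cell cannot be told apart.

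The 7 entries with a negative difference had low proximal usage only in the controls among the 4 genotypes. CG12099 (windows at 3L:1555482-1555512 and 3L:1555360-1555390 on the minus strand, BDGP6, as the tables give them, both in the 3' UTR) had 75.7% and 78.6% with PCF11 plus cbc, 82.0% and 82.0% with PCF11, 79.2% and 82.6% with cbc, and 38.8% and 27.7% in the controls. The means were 77.1% ± 2.05, 82.0% ± 0.0104, 80.9% ± 2.42 and 33.3% ± 7.80 (SD, n = 2 each). Its log2 odds ratio was -0.43 ± 0.29 (SE) for the step with PCF11, with an interval of -1.08 to 0.21, and 3.10 ± 0.30 for the step without. The difference was -3.54 ± 0.41, with an edgeR adjusted p of 0.00640. Rop, the fly Munc18 protein, which acts with SNAREs in membrane fusion (3L:4136866-4136896 and 3L:4136350-4136380, minus strand, 3' UTR), had 19.2% and 40.1% with PCF11 plus cbc, 37.5% and 37.97% with PCF11, 34.4% and 38.6% with cbc, and 1.38% and 2.52% in the controls. Replicate 1 of PCF11 plus cbc was the low one outside the controls. The difference of steps was -5.40 ± 0.85 (edgeR adjusted p = 0.0153).

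Rab11, a GTPase of recycling endosomes (3R:21115816-21115846 and 3R:21116120-21116150, plus strand, 3' UTR), had 53.4% and 58.5% with PCF11 plus cbc, 57.2% and 60.1% with PCF11, 49.0% and 48.3% with cbc, and 23.3% and 21.0% in the controls. The order of its mean levels was PCF11, PCF11 plus cbc, cbc and control, of which the first pair overlapped. The difference of steps was -1.89 ± 0.36 (edgeR adjusted p = 0.0442). The corepressor sbb had 16.5% and 21.1% with PCF11 plus cbc, 26.2% and 20.9% with PCF11, 24.3% and 32.5% with cbc, and 6.54% and 4.46% in the controls (difference -3.20, edgeR adjusted p = 0.0153). CG14207, a small heat shock protein of the HspB8 kind, had 39.5% and 49.7% with PCF11 plus cbc, 50.97% and 52.7% with PCF11, 56.9% and 54.8% with cbc, and 21.8% and 19.5% in the controls (difference -2.71, edgeR adjusted p = 0.0153). In CG31855 the shares were 68.3% and 82.3% with PCF11 plus cbc, 74.5% and 79.8% with PCF11, 85.5% and 81.7% with cbc, and 40.8% and 40.2% in the controls (difference -3.02, edgeR adjusted p = 0.0445), and its distal window overlaps ND-B22 on the opposite strand. In the deubiquitinase DUBAI they were 62.5% and 71.8% with PCF11 plus cbc, 70.7% and 61.6% with PCF11, 72.1% and 73.3% with cbc, and 37.0% and 39.9% in the controls (difference -2.02, edgeR adjusted p = 0.0445).

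The 2 entries with a positive difference had high proximal usage in the controls. CG31523, a fatty acid elongase (3R:4466466-4466496 and 3R:4465420-4465450, minus strand, 3' UTR), had 29.2% and 21.0% with PCF11 plus cbc, 25.9% and 27.4% with PCF11, 19.1% and 18.7% with cbc, and 65.7% and 64.0% in the controls. Its step with PCF11 was -0.13 ± 0.27 on the log2 scale and its step without -2.99 ± 0.28, a difference of 2.85 ± 0.38 (edgeR adjusted p = 0.0106). Idh3b, a subunit of the NAD-dependent isocitrate dehydrogenase of mitochondria, had 9.64% and 8.10% with PCF11 plus cbc, 7.55% and 9.16% with PCF11, 6.26% and 4.94% with cbc, and 15.6% and 17.7% in the controls. Its difference of steps was 1.85 ± 0.37 (edgeR adjusted p = 0.0445).

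**Figure D3:**
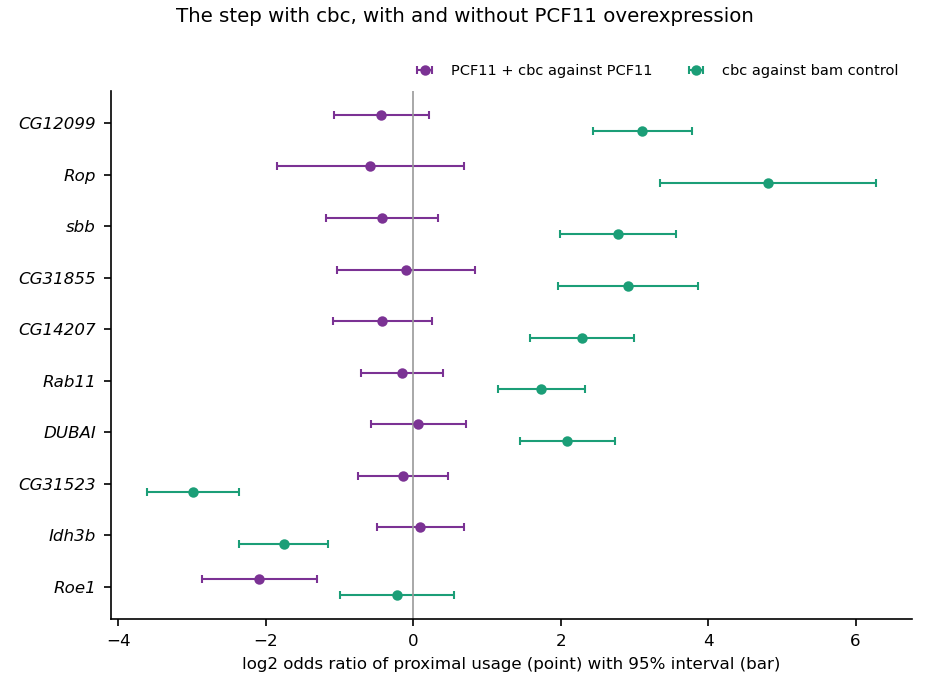
Log2 odds ratio of proximal usage (points) with 95% intervals (bars) for PCF11 plus cbc over PCF11 and for cbc over bam control, in the 9 entries whose 2 steps differed and in Roe1. In the 9 entries the intervals with PCF11 include 0 while those for cbc alone do not; in Roe1 the interval with PCF11 runs between -2.87 and -1.31 without an adjusted p under 0.05.

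Of the genes called in a single overexpression, Rab5, TH1, Tsc1, drk, nonC and Usp7 had no called difference of steps in usage. Rab5, the GTPase of early endosomes, had 18.8% and 43.6% with PCF11 plus cbc, 41.5% and 36.3% with PCF11, 43.9% and 49.3% with cbc, and 16.8% and 13.3% in the controls. Its replicate 1 of PCF11 plus cbc lay close to the controls and its replicate 2 among the single overexpressions. The log2 odds ratio against PCF11 was -0.57 ± 0.49, and 0.28 without that replicate. TH1 had 66.8% and 83.9% with PCF11 plus cbc, 74.5% and 79.5% with PCF11, 78.0% and 81.9% with cbc, and 33.3% and 22.6% in the controls, with a log2 odds ratio of -0.05 ± 0.52 against PCF11 and 0.63 without replicate 1. Tsc1, a growth inhibitor of the TOR pathway, had 40.7% and 52.5% with PCF11 plus cbc, against 50.9% and 50.9% with PCF11. The groups overlapped in Tsc1, drk, nonC and Usp7. The adaptor drk had 48.4% and 50.7% with PCF11 plus cbc, against 58.5% and 42.3% with PCF11. For nonC, the fly Smg1 kinase, the shares were 87.8% and 94.0% with PCF11 plus cbc, against 92.7% and 86.6% with PCF11. The deubiquitinase Usp7 had 0.302% and 0.483% with PCF11 plus cbc, against 0.674% and 0.421% with PCF11, out of 3972 and 3726 reads with PCF11 plus cbc and 2968 and 3087 with PCF11.

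The authors' deposited tables give each overexpression only against the bam controls, as a PolyA index that is negative where the proximal site gained. For Rop the authors' deposited table has an index of -3.93 with PCF11 plus cbc and -4.27 with PCF11. For Rab11 the authors' deposited table has -1.34 with PCF11 plus cbc and -1.41 with PCF11. For CG31523, which moved to its distal site, the authors' deposited table has 1.37 with PCF11 plus cbc and 1.28 with PCF11. Ire1 differed more, with 0.105 with PCF11 plus cbc and -1.26 with PCF11 in the authors' deposited table. Both indices of a gene rest on the same control libraries.

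JIL-1, a kinase of histone H3, had the smallest p of the 947 windows tested for their own reads. Its proximal window (3L:11080244-11080274, minus strand, 3' UTR) held 81 and 64 reads with PCF11 plus cbc, 175 and 171 with PCF11, 223 and 125 with cbc, and 110 and 123 in the controls. The log2 fold change against PCF11 was -1.50 ± 0.31, with an edgeR adjusted p of 0.107. Its distal window held 92 and 381 reads with PCF11 plus cbc, against 188 and 173 with PCF11, so that the 2 double libraries lay on either side. Its log2 odds ratio of proximal usage was -1.33 with both double libraries and -2.51 without PCF11 plus cbc replicate 1. Over the fits that each left out 1 of the 4 libraries compared, it ran between -2.51 and -0.12, so its size depended on single libraries. Over all windows 0 of 947 passed (0.0%), 47 (4.96%) had an unadjusted p under 0.05, and DESeq2 called 3.

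**Figure D4:**
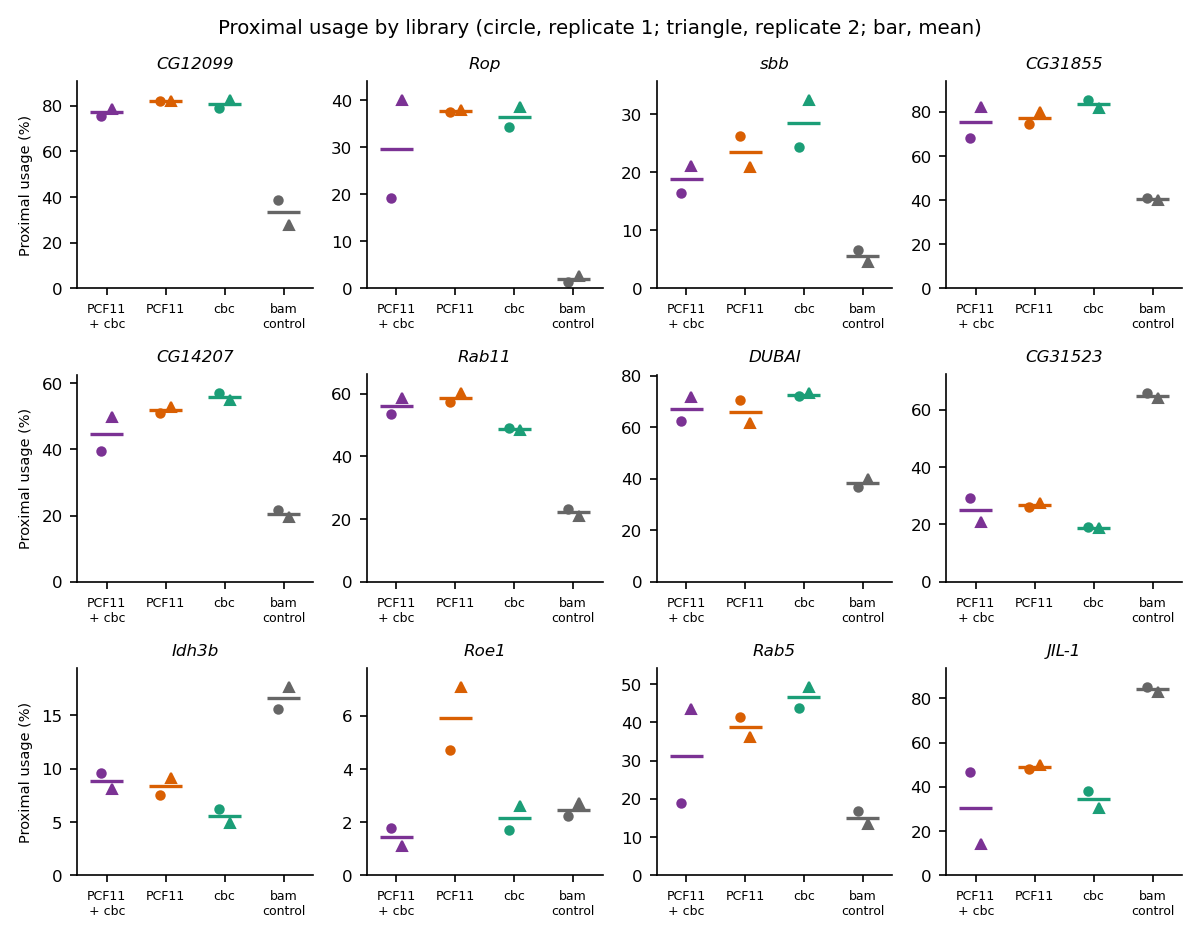
Proximal usage (%, vertical axis) of 12 entries by library, with genotype on the horizontal axis; circles are replicate 1, triangles replicate 2 and bars the mean of 2. In the first 9 panels the 6 overexpression libraries lie apart from the 2 bam control libraries, in Roe1 the PCF11 libraries (4.73% and 7.10%) lie apart from the rest, and in Rab5 and JIL-1 the 2 PCF11 plus cbc libraries lie far from each other.

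Of the summed reads per gene, 1 of 524 entries passed (0.191%) by edgeR with TMM scaling: nrv2 rose, and none fell (0.0%). An unadjusted p under 0.05 was reached by 30 (5.73%), and DESeq2 called 2, nrv2 and DOR. The median log2 fold change was 0.003, 110 entries had both PCF11 plus cbc libraries above both PCF11 libraries (21.0%) and 98 below (18.7%). The 95% interval lay within 1 log2 unit of 0 on both sides for 405 entries (77.3%). Levels are CPM, counts scaled to the total of listed reads with TMM factors, so they are relative to the listed genes.

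nrv2, a beta subunit of the sodium-potassium ATPase (2L, windows at 6790371-6790401 and 6789816-6789846 on the minus strand, 3' UTR), had 5372 and 4633 CPM with PCF11 plus cbc, against 2899 and 2686 CPM with PCF11. It had 2423 and 2334 CPM with cbc and 2626 and 2061 CPM in the controls. The double libraries were the 2 highest of the 8 and the other 6 lay between 2061 and 2899 CPM. Means were 5002 ± 523 CPM with PCF11 plus cbc and 2793 ± 151 CPM with PCF11 (SD, n = 2 each). The fold change was 1.79 (95% interval 1.41 to 2.28), log2 0.84 ± 0.16, with an edgeR adjusted p of 0.0476. In both windows the double libraries lay above, the proximal with 122 and 114 reads with PCF11 plus cbc, against 45 and 54 with PCF11, and the distal with 1470 and 1205 reads with PCF11 plus cbc, against 686 and 591 with PCF11. Neither window passed on its own (edgeR adjusted p of 0.855 for the proximal and 0.148 for the distal). The log2 fold change stayed between 0.71 and 0.93 over 16 alternatives, of which 7 called it, with an adjusted p between 3.12e-04 and 0.827. It was not called without PCF11 plus cbc replicate 1 (adjusted p = 0.279 by edgeR), PCF11 replicate 1 (0.770) or PCF11 replicate 2 (0.827), and was called without PCF11 plus cbc replicate 2 (0.0419).

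The 7 entries next in order with higher reads did not pass. DOR, a regulator of autophagy and nuclear receptor coactivator, had 4403 and 5406 CPM with PCF11 plus cbc, against 3066 and 2940 CPM with PCF11 (log2 0.71 ± 0.18, edgeR adjusted p = 0.257). Its controls, with 4780 and 3279 CPM, spanned the range between. CG8026 had 1812 and 1489 CPM with PCF11 plus cbc, against 1023 and 933 CPM with PCF11 (edgeR adjusted p = 0.369), and the other 5 were gukh, Sh3beta, CG16711, Liprin-alpha and Roe1. Roe1, described above for its proximal share, had 8783 and 7868 CPM with PCF11 plus cbc, against 5953 and 7275 CPM with PCF11. The smallest p among entries with fewer reads belonged to CG4751, with 1454 and 1377 CPM with PCF11 plus cbc, against 2225 and 2319 CPM with PCF11 (log2 -0.68 ± 0.18, edgeR adjusted p = 0.277). Ndf, a nucleosome-destabilising factor, had 1927 and 2048 CPM with PCF11 plus cbc, against 2709 and 2590 CPM with PCF11, and the nuclear receptor ftz-f1 had 226 and 133 CPM with PCF11 plus cbc, against 349 and 337 CPM with PCF11. CG31635, Drep2, CG1024, the ubiquitin ligase Cbl and the prenyltransferase heix completed the list, none past the threshold.

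Genes whose reads answered to cbc alone were set beside the same step with PCF11. edgeR called 123 entries (23.5%) for cbc against the bam controls, 67 higher (12.8%) and 56 lower (10.7%), 112 (21.4%) for PCF11 against the controls, and 172 (32.8%) for PCF11 plus cbc against them. The 67 higher entries were called by the contrast of cbc and control libraries, in the fit that all libraries shared. Their median log2 fold change was 0.09 for PCF11 plus cbc over PCF11 and 1.22 for cbc over the controls. Their median level was 1002 and 1486 CPM with PCF11 plus cbc, 1166 and 1128 CPM with PCF11, 1244 and 1248 CPM with cbc, and 599.9 and 455 CPM in the controls. The double replicates lay below and above both PCF11 libraries. In the 56 lower entries the medians were -0.04 for PCF11 plus cbc over PCF11 and -0.71 for cbc over the controls. None of the 123 passed in PCF11 plus cbc against PCF11, where 0.191% of all entries did, so this count says nothing particular about them.

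The difference of the 2 steps was past the threshold for 54 of 524 entries (10.3%), 20 with a positive (3.82%) and 34 with a negative difference (6.49%), and 129 (24.6%) had an unadjusted p under 0.05. In 53 of them its sign was opposite to the step without PCF11, which is in part built in, and the exception was nrv2, with a difference of 0.82 and an edgeR adjusted p of 0.0347. Without PCF11 plus cbc replicate 1 edgeR called 29 of the 54. Over the 8 fits that each left out a library the count ran between 21 (without PCF11 replicate 1) and 72 (without bam control replicate 1); it was also more than 1.5 times lower without PCF11 replicate 2 (23), cbc replicate 1 (29) and cbc replicate 2 (33). Of the 54, 18 passed in all 8 fits and all 54 kept their sign.

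Among the negative differences, TH1 had 1117 and 2385 CPM with PCF11 plus cbc, 1682 and 2153 CPM with PCF11, 2586 and 2938 CPM with cbc, and 619 and 483 CPM in the controls. The 2 double libraries enclosed the PCF11 libraries, and the controls were the low ones. Its difference of steps was -2.46 ± 0.39 (edgeR adjusted p = 7.23e-04). chb, the fly CLASP protein of microtubule ends, had 685 and 1911 CPM with PCF11 plus cbc, 1245 and 1520 CPM with PCF11, 1484 and 1552 CPM with cbc, and 222 and 285 CPM in the controls (difference -2.66, edgeR adjusted p = 0.00248). In CG11030 the levels were 1316 and 2093 CPM with PCF11 plus cbc, 2142 and 1845 CPM with PCF11, 2465 and 2310 CPM with cbc, and 615 and 298 CPM in the controls (difference -2.63, edgeR adjusted p = 5.25e-04). CG2765 was highest in a double library, with 1518 and 2912 CPM with PCF11 plus cbc, 1345 and 1341 CPM with PCF11, 1861 and 2444 CPM with cbc, and 304 and 146 CPM in the controls (difference -2.56, edgeR adjusted p = 0.00142). For TH1, chb, CG11030 and CG2765 the call held in all 8 fits that left out a library. In CG5776 and CG14712 the differences were -2.97 and -2.54, called in 5 and 6 of the 8 fits.

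**Figure D5:**
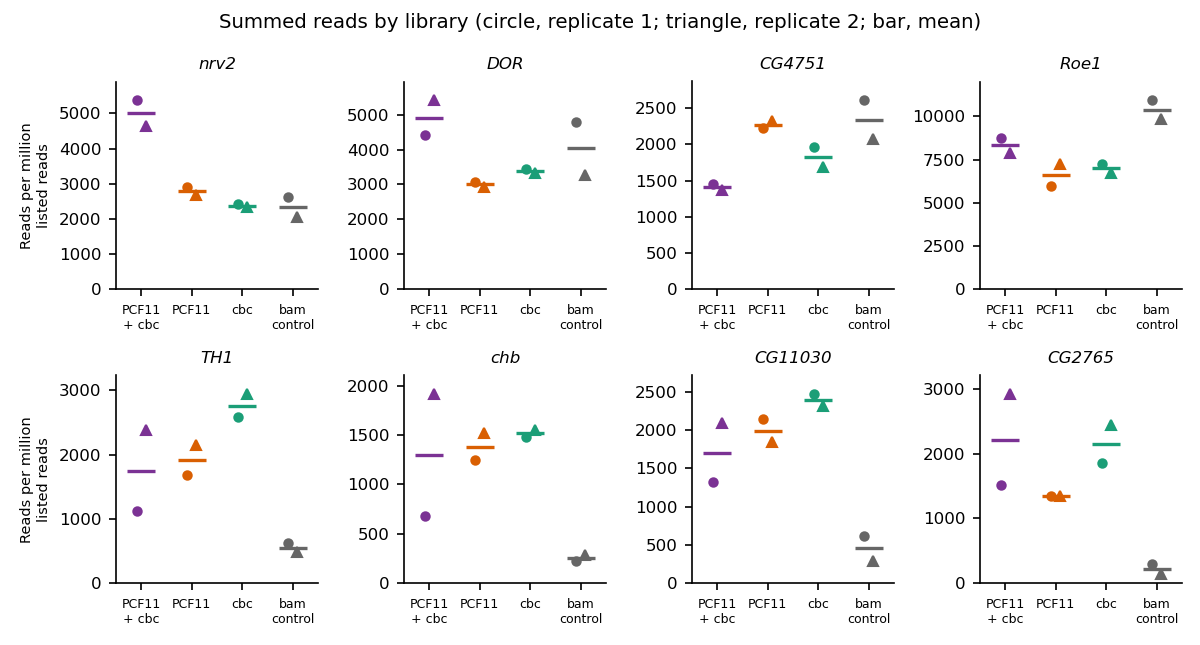
Summed reads (CPM, vertical axis) of 8 entries by library, with genotype on the horizontal axis; circles are replicate 1, triangles replicate 2 and bars the mean of 2. In nrv2 the 2 PCF11 plus cbc libraries (5372 and 4633 CPM) lie above the other 6, while in TH1, chb, CG11030 and CG2765 the bam controls are lowest and the 2 PCF11 plus cbc libraries differ from each other.

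Among the positive differences, alpha-Est5, a carboxylesterase, had 621 and 467 CPM with PCF11 plus cbc, 242 and 333 CPM with PCF11, 107 and 146 CPM with cbc, and 265 and 216 CPM in the controls. The double libraries were the highest and the cbc libraries the lowest. Its difference of steps was 1.84 ± 0.55 (edgeR adjusted p = 0.0408), while its step with PCF11 did not pass on its own (log2 0.92 ± 0.37, edgeR adjusted p = 0.682). Su(z)2, a Polycomb group protein, had 1056 and 779.7 CPM with PCF11 plus cbc, 777 and 770.4 CPM with PCF11, 779.9 and 725 CPM with cbc, and 1659 and 1430 CPM in the controls (difference 1.28, edgeR adjusted p = 0.0183). Nmda1, a glutamate receptor subunit whose window overlaps AspRS and an antisense RNA on the opposite strand, had 2126 and 1711 CPM with PCF11 plus cbc, 1567 and 1441 CPM with PCF11, 1213 and 1370 CPM with cbc, and 2240 and 2411 CPM in the controls (difference 1.20, edgeR adjusted p = 0.00596). For strat, CG43675 and red the differences were 1.41, 1.34 and 1.06. Of the 8 fits that each left out a library, CG43675 and Nmda1 passed in 6, strat, Su(z)2 and red in 3, and alpha-Est5 in 2. CG12099, DUBAI and Rab11 passed the test of the difference of steps in both usage and summed reads.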

How the data were processed

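Reads were 3' end sequences of testis RNA (QuantSeq FWD libraries) from 8 libraries, 2 per genotype. The deposited count tables hold reads per 30-bp poly(A) window, made by the authors with PolyA-miner on a list of 1098 supplied sites, without regard to strand and without molecular identifiers, per the file headers and logs; the submitters' processing notes also name Bowtie, SAMtools, BDGP6 and dm6. The authors' deposited results give a score, the PolyA index, and an adjusted p-value per gene for each overexpression against the bam control. Control columns are identical in all tables. Annotated positions of 99.6% of matched genes equal the deposited gene list, so features were read from the BDGP6 gene annotation; the strand setting means that antisense reads cannot be told apart. Another gene overlaps 157 entries, in 123 cases on the opposite strand.

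The proximal window was compared with all more distal ones of an entry in edgeR 4.0.16 (R 4.3.3) by the quasi-likelihood test, as a genotype-by-site term with each library's entry total accounted for; all 8 libraries shared one estimate of spread. Summed reads were tested with TMM factors (0.987 to 1.01). Entries needed 10 reads per library on average over the 4 libraries compared, and for usage a summed 5 on each side, and 24 entries had 3 windows. Calls had a Benjamini-Hochberg adjusted p under 0.05 over all entries. DESeq2 1.42.0 was the other tool. Counts were simulated for 510 entries with a dispersion of 0.05 in every entry, and proximal and distal counts were drawn independently. The recovery holds for that spread, which may differ from that of these libraries. Usage shifts of log2 1 were recovered in 16% (up) and 40% (down), and of log2 2 in 76% of either. False calls were 1.29% among unchanged entries. In summed reads, log2 1 was recovered in 66% (up) and 74% (down). CPM are counts per sum of listed reads, scaled as in the TMM fit.

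Named entries were those past the threshold with groups that do not overlap (up to 10 each way), filled up to 8 each way by smallest p, list members and entries past both tests, up to 6 each way past a difference of steps, and 12 entries known to move in single overexpression. CycT and IntS6 were named after their values were seen, as list members. The members, gene lists and these 12 were chosen with earlier results of these data known. Samples were grouped by their titles. Same-numbered libraries of PCF11 plus cbc and of PCF11 did not deviate together (correlation of replicate differences -0.0284 for usage and -0.1132 for summed reads). The cbc and bam control libraries were not checked in this way. Such correlations cannot show whether same-numbered libraries were prepared together. Replicate numbers were not used as a pairing in the main fit.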

Additional observations from a re-analysis of the deposited data

Results flagged for a closer look

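The step with cbc differed between flies with and without the PCF11 transgene in 9 entries for proximal usage. The test was edgeR's test of the difference of steps with Benjamini-Hochberg adjustment. Either step also adds a UAS transgene, so the difference cannot be assigned to cbc itself. The differences on the log2 odds scale were -5.40 in Rop, -3.54 in CG12099, -3.20 in sbb, -3.02 in CG31855, -2.71 in CG14207, -2.02 in DUBAI, -1.89 in Rab11, 1.85 in Idh3b and 2.85 in CG31523. In each, the bam controls stood apart from the 6 overexpression libraries, and the step with PCF11 lay between -0.58 and 0.10.

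For summed reads the same test gave 54 entries, of which the 6 with the largest difference each way were named. They were -2.97 in CG5776, -2.66 in chb, -2.63 in CG11030, -2.56 in CG2765, -2.54 in CG14712 and -2.46 in TH1, and 1.84 in alpha-Est5, 1.41 in strat, 1.34 in CG43675, 1.28 in Su(z)2, 1.20 in Nmda1 and 1.06 in red. CG43675 overlaps drn on the same strand. In CG5776 the count was 24 and 81 reads with PCF11 plus cbc, 76 and 73 with PCF11, 115 and 97 with cbc, and 22 and 27 in the controls, and its call was lost in 3 of the 8 fits that each left out a library.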

How the results depend on the processing

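For usage, PCF11 plus cbc against PCF11, edgeR's count of 0 calls held in edgeR over other read minimums, library subsets, the replicate block and the other grouping of windows, and without each of the 4 libraries, while DESeq2 called 1. Alternatives chosen after seeing the data called 2 with a same-number pairing of the 4 libraries as replicate block, 1 among entries with no overlapping gene, and 0 with the crossed pairing. For summed reads, where 1 entry was called, DESeq2 called 2, and edgeR called 0 with the replicate number as a block, with a mean of 50 or more reads, with the 6 libraries of the 2 joined tables, with listed totals in place of TMM, with the same-number pairing (added later) and among entries with no overlapping gene (added later), and 2 with the crossed pairing (added later). Leaving out each of the 4 libraries gave 0 to 3 calls. For windows DESeq2 called 3, and leaving out a library gave 0 to 1. For the difference of steps in usage, against 9 calls, DESeq2 called 31 and the replicate block 5, and leaving out each of the 8 libraries gave 0 to 12; in summed reads, against 54 calls, these were 66, 37 and 21 to 72. Leaving out cbc and control libraries was also added later.

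Several log2 odds ratios changed sign when a library was left out. Not all of them were near 0, as Rop lay at -0.58 with all libraries. Over these fits they ranged between -0.45 and 0.19 in CG31523, -1.35 and 0.14 in Rop, -1.46 and 0.28 in Rab5, -0.75 and 0.63 in TH1, -0.60 and 0.092 in Tsc1, -0.52 and 0.42 in drk, -0.31 and 0.80 in nonC, and -0.15 and 1.13 in orb. TH1 also reached 0.15 without PCF11 replicate 2, drk 0.012 without PCF11 plus cbc replicate 1, and nonC -0.29 without PCF11 replicate 2; the cause was not tested. The difference in median proximal usage kept its sign, at -1.33 to -0.106 percentage points.

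The depth of the listed windows and 2 libraries per group limit the comparison. With a median standard error of 0.65, shifts of 1 log2 unit in usage were mostly not detectable, and where the fits leave 1 library in a group, it is assumed to vary like the others. The list of sites holds only genes with more than 1 site, so genes outside it were not analysed here.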
